A study of Lilium davidii var. unicolor with 6 samples.

Results

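Among the transcripts of lily bulb scales, 218 of 14140 had been seen in at least 30 full-length reads and were not among the 100 most abundant of 500 bases or more. The identifiers look like those of PacBio Iso-Seq, where the number after f counts the full-length reads behind a sequence. Members were chosen by that read number and by the mean short-read level: they were the 239 rows with 30 reads or more, less the 21 of them that stood among the 100 rows of highest mean FPKM of at least 500 bases. FPKM is the deposited short-read level, in fragments per kilobase of transcript, scaled to library size. Both quantities that chose the members are therefore given as descriptions, without a test.

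The scales came from the Lanzhou lily, Lilium davidii var. unicolor, whose detached scales can root and form bulblets, and the study addressed this process under methane. They were soaked for 3 h and then watered every 3 days with distilled water (control, n = 3) or with methane-rich water of 100% strength (MRW, water in which methane has been dissolved, n = 3). All were kept in the dark in moist perlite and vermiculite, with warmer days than nights, and sampled 10 days after cutting. A replicate comprised 40 scales, per the labels, so each library is taken as a pool. In pooled tissue, fewer cells of a type and less RNA per cell cannot be told apart. The libraries held 20988773 to 28031469 estimated counts, and the labels name no batch. Control replicate 2 differed from the other control libraries in the balance of long against short transcripts and lay near the MRW libraries in it. The totals of calls, and calls in long and short members, are also given without it. Shares of calls by read number and by decimals rest on all 6 libraries and may change without it.

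A full-length read in such long-read sequencing spans a transcript from its start to its poly(A) tail and so gives the whole sequence of 1 molecule. Reads of the same isoform are merged into 1 consensus, and the number merged is kept in the name. Short-read sequencing breaks transcripts into fragments and counts these instead, so a read number and a short-read level are different measures of a transcript. The sources used here do not give the scales or the treatment that supplied the long-read RNA. All rows share 1 long-read source in their names, so the read number has no replicates and no error of its own. The rows carry no gene names, so gene functions, pathways and markers of cell types are not reported.

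The read numbers were very uneven. The median row of the series had 3 reads and the median member 41. The 218 members (1.54% of the rows) held 15374 of the 78937 full-length reads, or 19.5%. Of the members, 137 had 30 to 49 reads, 55 had 50 to 99 and 26 had 100 or more. The 3 with most reads (1195, 882 and 831) together held 18.9% of the members' reads. All 218 were marked as high-quality consensus sequences, as were 14088 of the 14140 rows, and no low-quality row had more than 16 reads. Next to the lower bound, the 12 members with 30 reads had a median of 35.7 FPKM, and the 19 rows with 29 reads had 23.2 FPKM. At the upper bound, the member of at least 500 bases with the highest level had 1539 FPKM, and the lowest of the left-out rows with 30 reads or more had 1790 FPKM.

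The short-read level of the members ran from 0 to 29109 FPKM, and that of all rows to 57699 FPKM. Their median of mean FPKM was 87.3, against 15.8 for all rows, with an interquartile range of 25.0 to 402. Of the 218, 42 (19.3%) lay under the median of all rows, and 90 had 200 FPKM or more. At least 30 reads were found in 0.433% of rows under 10 FPKM, in 1.32% of those from 10 to under 50, in 1.73% of those from 50 to under 200 and in 8.19% of those at 200 or more. The share of such rows thus rose with the level, although most abundant transcripts had few full-length reads. Among the 100 rows left out for their level, the median was 5 reads, 21 rows had 2 reads and 60 had fewer than 10. Those 100 rows took 28.7% of the short-read counts (mean of 6 libraries) and 3.41% of the full-length reads. The members took 4.67%, 4.82% and 4.92% of the counts in control replicates 1 to 3 and 4.75%, 4.69% and 4.82% in MRW. The groups of 3 overlapped, with means of 4.80% ± 0.126 and 4.75% ± 0.0651 (SD, n = 3).

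**Figure D1:**
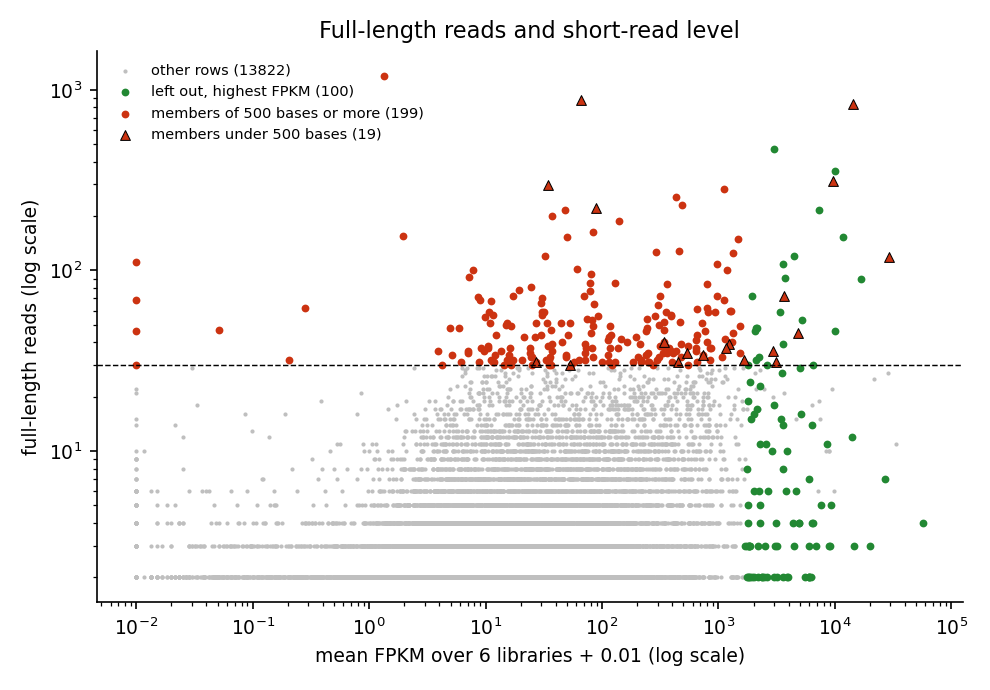
Full-length reads of every transcript (log axis) against mean FPKM over the 6 libraries plus 0.01 (log axis). Red points are the 218 members, triangles the 19 of them under 500 bases, green points the 100 rows left out, and the dashed line marks 30 reads. Members are spread from 0 FPKM, at the left edge, to 29109 FPKM.

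Across all 14140 rows, read number and mean FPKM had a Spearman correlation of 0.312. Across the 218 members it was 0.096. The points share 1 long-read source and 6 short-read libraries, and the members were selected on both quantities, so these values are descriptions only. Over members the correlation was 0.086 with the mean of the control libraries and 0.104 with the mean of the MRW libraries. Members with whole counts in all libraries, which number 70, gave 0.247.

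Length went with the short-read level and hardly with the read number. Over all rows, read number had a Spearman correlation of -0.024 with length, whereas mean FPKM had -0.661. Within the members the corresponding values were -0.064 and -0.799. The 75 members over 2000 bases had a median of 43 reads and 15.7 FPKM, and the 56 members of 500 to 1000 bases had a median of 42.5 reads and 469 FPKM. Reads per unit of FPKM had a median of 2.67 in the longer and 0.0956 in the shorter of these classes, beside 0.909 and 0.0448 for all rows of the same lengths. Taken within length classes, the correlation between reads and FPKM over all rows was 0.379 to 0.491, above the pooled 0.312. Over members it was 0.098 to 0.278, the highest value resting on 19 transcripts.

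FPKM of the 19 members under 500 bases depended on how length was set. The deposited FPKM corresponds to an effective length below that of the transcript. The median difference was taken over rows of more than 1000 bases that passed a minimum FPKM in the library. It was 249.8 to 259.0 bases in the 6 libraries. For the shortest member, of 232 bases and 831 reads, the effective length was 9.37 bases, 4.04% of the real one. Its mean level of 14327 FPKM would be 579 if its counts were divided by the full length. In the 19 members the effective length was 4.04% to 48.5% of the full length, and 7 of them exceeded the lowest FPKM of the 100 rows left out. Counting per full length gave a Spearman correlation of 0.094 over the members, close to the 0.096 with FPKM.

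The 3 members with most full-length reads had very different short-read levels. The first, with 1195 reads and 1258 bases, had the most reads of the series and ranked 12678th of 14140 by mean FPKM. Its level was 1.79, 2.21 and 3.44 FPKM in control replicates 1, 2 and 3 and 0.20, 0.06 and 0.33 FPKM in MRW replicates 1, 2 and 3. All MRW values lay below all control values. The second, with 882 reads and 296 bases, had 80.5, 47.9 and 71.4 FPKM in control and 65.8, 68.3 and 65.1 FPKM in MRW. Its MRW values fell inside the control range. The third, with 831 reads and 232 bases, had 15311, 11363 and 16432 FPKM in control and 14014, 14531 and 14310 FPKM in MRW, again inside the control range. Control replicate 2 was the lowest control library in both of these short transcripts.

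At the other extreme, the member with the fewest reads per unit of FPKM had 119 reads and a mean of 29109 FPKM, the third highest level in the table. It is 405 bases long, had whole counts in all libraries and took 0.341% to 0.563% of all counts. Its level was 31313, 26960 and 37550 FPKM in control and 21917, 27770 and 29143 FPKM in MRW. The groups overlapped, and its log2 fold change of -0.34 ± 0.16 (SE) did not pass (edgeR adjusted p = 0.202). The other 2 members with fewest reads per FPKM were also under 500 bases, at 4815 and 3120 FPKM with 45 and 31 reads.

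Some members were nearly or wholly missing from the short reads. Mean FPKM was under 1 in 7 of the 218 (3.21%), against 8.64% of all rows. Of these, 4 were listed at 0 FPKM in all 6 libraries. They had 30, 46, 69 and 111 full-length reads and lengths of 2604, 5944, 8325 and 3379 bases. In 3 of them no count was assigned in any library, which allows a share of up to 1.43e-05% of the smallest library (3 counts, for counting error only). Another member, with 47 reads and 2722 bases, had 7.52 counts in control replicate 2, 5.37 in MRW replicate 2 and 0 in the other 4 libraries. These 5 failed the filter on low counts and were not tested, which left 213 members in the comparison of treatments.

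Most members had counts that were not whole numbers. In 148 of the 218 (67.9%) the deposited counts carried decimals in at least 1 library, as a program gives when it divides reads among sequences. The share was 48.1% over all rows. By read number it was 47.8% in rows with 2 reads, 46.8% with 3 to 10, 53.5% with 11 to 29, and 65.0%, 74.5% and 69.2% in members with 30 to 49, 50 to 99 and 100 or more. It was 75% in the 68 members over 1000 and up to 2000 bases and 47.4% in the 19 members under 500 bases. How reads were divided between related sequences cannot be checked from these files, so the level of a member with decimals is less certain than that of one with whole counts.

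The spread between replicates was small for most members. The SD of log2 CPM within groups (CPM is counts scaled by TMM to a common library size) had a median of 0.123 over the 213 tested members, against 0.139 over all 13331 tested rows, and was under 0.1 in 66 members. The steadiest member, with 37 reads and 1127 bases, had 705, 696 and 719 CPM in control and 797, 793 and 813 CPM in MRW. Its groups did not overlap, but its log2 fold change of 0.18 ± 0.06 (SE) did not pass (edgeR adjusted p = 0.0879). The least steady, with 48 reads and 1726 bases, had 0, 233 and 585 counts in control replicates 1 to 3 and 0, 452 and 0 in MRW. Such an on and off pattern inside a group (under 1 count in 1 library and at least 50 in another) was seen in this 1 member (0.459%) and in 222 rows of the series (1.57%), all with decimals. A further member of 2496 bases and 33 reads had 1008 to 2947 counts in 5 libraries and 1.26 in MRW replicate 2. Its log2 fold change of -1.52 ± 0.98 (SE) did not pass (edgeR adjusted p = 0.339). Likewise, a member of 6595 bases and 32 reads had 44.4, 51.2 and 30.3 counts in control and 23.8, 0 and 26.9 in MRW (edgeR adjusted p = 0.3).

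Scales given MRW differed from controls in 40 of the 213 tested members (18.8%), 25 lower and 15 higher (quasi-likelihood test of edgeR; p adjusted over all 13331 rows, threshold 0.05). Among all tested rows 17.5% were called, 11.9% lower and 5.63% higher, so the members' 11.7% and 7.04% were near the background in this fit. The median log2 fold change was 0.01 over the members and 0.02 over all rows tested. Of the members, 116 (54.5%) lay within 0.2 of 0, against 53.9% of all rows tested. Groups did not overlap in 89 members (41.8%), beside 36.7% of all rows tested. At an unadjusted p under 0.05 (edgeR) there were 79 members. The share of all rows at that threshold is not given here, so the 79 cannot be set against a background. The split by direction moved with the scaling, to 45 higher and 23 lower with upper quartile factors (31.9% called, against 25.3% of all rows in that fit) and to 26 higher and 23 lower with library totals (23.0% against 18.0%). With upper quartile factors 21.1% of the members were higher, against 15.0% of all rows, and 10.8% lower against 10.3%. With library totals the higher were 12.2% against 7.63% and the lower 10.8% against 10.4%. With each library left out in turn the members called higher numbered 4 to 43 and those called lower 23 to 46. Without control replicate 2 there were 43 higher (20.2%, against 9.61% of all rows) and 46 lower (21.6% against 15.4%). In that fit 41.8% of the members were called against 25.0% of all rows, and the share was not near the background. Without any other single library 12.7% to 15.0% of the members were called, against 11.9% to 14.4% of all rows. In those fits the higher were 1.88% to 3.29% against 2.4% to 3.69%, and the lower 10.8% to 11.7% against 9.54% to 10.7%. The members' share also exceeded that of all rows with DESeq2, at 60 members (28.2%) against 2662 of the 13331 rows. After a fitted trend with length was taken out of every library, 25.4% of the members were called, against 19.2% of all rows. The shares were closer with limma-voom, at 19.7% against 18.2%.

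The share called lay between 17.4% and 20.4% in each of 6 broad classes of read number. At single read numbers next to the bound it varied more, with 0 of 11 members called at 30 reads (0 also with DESeq2 and limma-voom, and 4 at an unadjusted p under 0.05 with edgeR), 2 of 18 at 31 and 4 of 13 at 32, and 9 of 18 rows at 29 reads. The Spearman correlation between reads and log2 fold change was 0.045 over members and -0.006 over all tested rows. Members with 30 to 49 reads were called in 24 of 134 (17.9%), those with 50 to 99 in 11 of 54 (20.4%) and those with 100 or more in 5 of 25. Rows with 2 reads, 3 to 10 and 11 to 29 were called in 17.4%, 17.4% and 18.8%. Calls at least 2-fold lower were 7.87%, 6.30% and 4.49% of those 3 classes and 5.16% of the members, 11 of 213. The background was 6.79% of all tested rows for such falls. Rises of 2-fold or more were called in 0.488% of all tested rows and in 0 members (edgeR). At an unadjusted p under 0.05 the number was also 0, as it was with DESeq2 and limma.

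**Figure D2:**
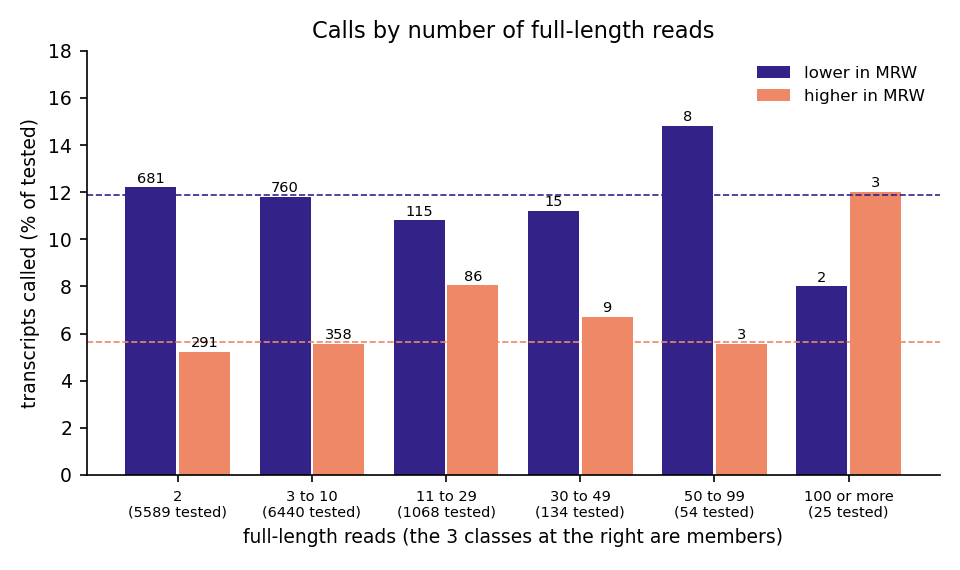
Share of tested transcripts called lower or higher in MRW (edgeR adjusted p under 0.05) by number of full-length reads. Bars start at 0, the number over each bar counts transcripts, and the dashed lines give the shares over all 13331 tested rows, 11.9% lower and 5.63% higher. The last class holds 25 transcripts, of which 2 were lower and 3 higher.

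Among members, calls were more frequent where counts carried decimals. Of 146 such members tested 35 were called (24.0%), and of the 67 with whole counts 5 were (7.46%). In all tested rows the shares were 19.1% and 16%. This contrast was seen after the calls were made and was not tested.

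The 11 members at least 2-fold lower had log2 fold changes from -6.23 to -1.20, and 10 of them had counts with decimals. They had 31 to 1195 reads, lengths of 512 to 3017 bases and mean levels of 0.273 to 359 FPKM. Each remained called and lower in every alternative that tested it. The largest fall was in transcript_HQ_Ld3_vu_transcript24265/f81p0/791, a sequence of 800 bases with 81 full-length reads. It had 29.5, 24.9 and 27.1 CPM in control replicates 1, 2 and 3 and 0.0775, 0.704 and 0.323 CPM in MRW. The MRW libraries thus held between 2.38 and 15.8 counts each, against 537 to 715 in control. The lowest of these lay under the floor of 3 counts, so the size of this fall is less certain than its direction. The fitted change was -6.23 ± 0.37 on the log2 scale (SE; edgeR adjusted p = 9.96e-06).

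The second, transcript_HQ_Ld3_vu_transcript19621/f51p0/1189, has 1189 bases and 51 reads. Its level was 30.5, 27.6 and 26 CPM in control and 1.20, 1.54 and 1.40 CPM in MRW. All 3 MRW values were close to each other and far below the controls, with a log2 fold change of -4.34 ± 0.13 (SE; edgeR adjusted p = 1.16e-06).

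Very low levels lay behind a pair of the falls. The member with 1195 reads had 40.8, 46.3 and 96.7 counts in control and 5.06, 1.22 and 8.96 in MRW. As MRW replicate 2 was under the floor of 3 counts, this member's fold is less certain than its direction. Its log2 fold change was -3.71 ± 0.60 (SE; edgeR adjusted p = 0.00329), and both groups had a few CPM at most. The member with 62 reads, 3017 bases long, was at 32.4, 22.6 and 53.0 counts in the controls and at 3.99, 0 and 0 in MRW. Its groups did not overlap, and no fold is given because the MRW libraries were near or under the floor of 3 counts (edgeR adjusted p = 0.00854).

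Other falls were in transcripts with higher levels. A member of 946 bases with 32 reads had 354, 356 and 388 CPM in control and 60.1, 43.1 and 41.0 CPM in MRW (log2 fold change -2.93 ± 0.15, SE; edgeR adjusted p = 4.68e-06). A member of 1035 bases, also with 32 reads, had 287, 281 and 303 CPM in control and 61.9, 49.3 and 49.1 CPM in MRW. The spread within each group was small beside the gap between them in both transcripts. A member of 894 bases with 84 reads had 366, 354 and 324 CPM in control and 132, 108 and 106 CPM in MRW, a fitted 3.02-fold difference (edgeR adjusted p = 1.53e-05).

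In the remaining falls of at least 2-fold the groups were separate too, as the call itself favours. The member of 1855 bases and 33 reads had 66.8, 66.4 and 69.9 CPM in control and 13.8, 13.6 and 10.5 CPM in MRW. The member of 1283 bases and 32 reads had 124, 114 and 110 CPM in control and 36.6, 31.6 and 33.7 CPM in MRW. Both had MRW libraries far below every control. The member of 2977 bases and 50 reads was the only one of the 11 with whole counts in every library. It had 63.0, 66.9 and 63.1 CPM in control and 20, 18.2 and 18.1 CPM in MRW, with a log2 fold change of -1.78 ± 0.07 (SE; edgeR adjusted p = 2.03e-06). The smallest of these falls, in a member of 512 bases and 31 reads, was from 91.0 ± 13.4 to 39.7 ± 4.02 CPM (SD, n = 3 each).

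**Figure D3:**
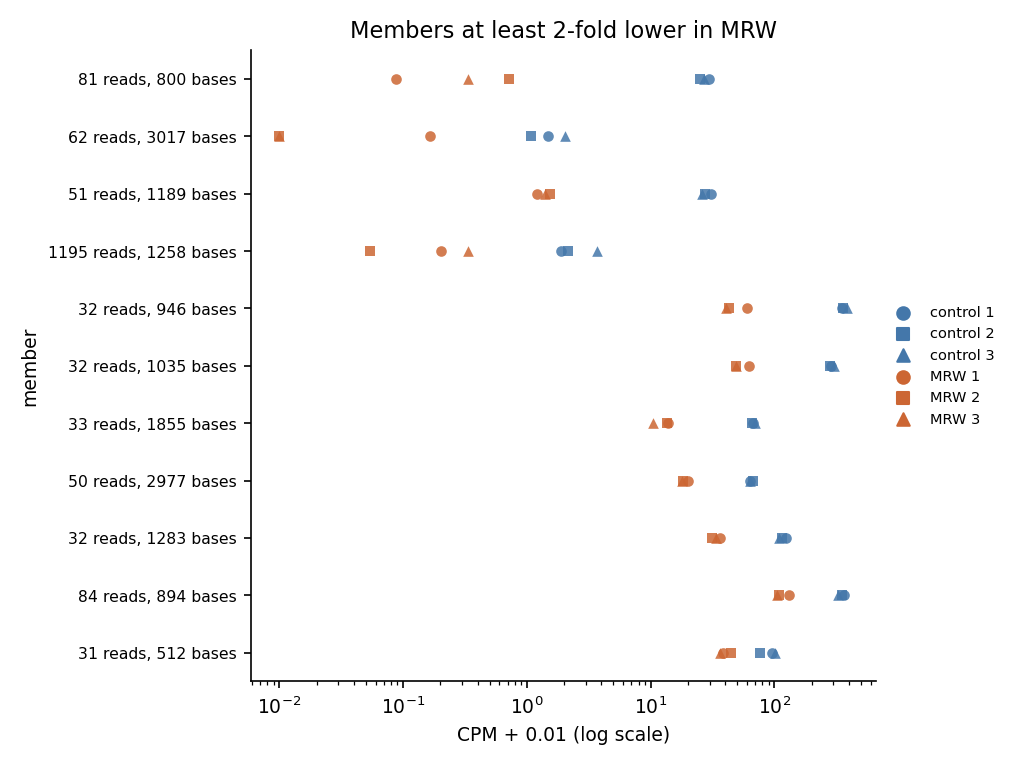
CPM plus 0.01 (log axis) of the 11 members at least 2-fold lower in MRW, with 1 symbol for each library, blue for control and orange for MRW. Members are named by full-length reads and length and ordered by fold change. In all 11 the MRW symbols lie left of the control symbols, as the call itself favours, and the gap is widest for the member with 81 reads.

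The 14 smaller falls ran from -0.97 to -0.33 on the log2 scale, in transcripts with a median length of 841.5 bases. The one with most reads had 109 reads and 686 bases. It had 553, 501 and 590 CPM in control and 283, 290 and 334 CPM in MRW, a fitted 1.81-fold difference (edgeR adjusted p = 0.000347). Of all 25 lower members 23 remained called in every alternative. The other 2, with 38 reads (742 bases) and 34 reads (3205 bases), were called in 11 and 10 of the 19.

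The 15 higher members rose by 0.30 to 0.77 on the log2 scale, at most 1.71-fold. Their median length was 2339 bases, against 946 for the 25 lower members. For all rows called, the corresponding medians were 2158 and 1084 bases. The largest rise was in transcript_HQ_Ld3_vu_transcript28450/f40p0/503, of 503 bases with 40 reads and whole counts. It had 7.96, 7.23 and 9.70 CPM in control and 16.2, 13.6 and 12.8 CPM in MRW (log2 fold change 0.77 ± 0.15, SE; edgeR adjusted p = 0.00804). The groups were separate, the nearest libraries being control replicate 3 and MRW replicate 3.

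Next came transcript_HQ_Ld3_vu_transcript6104/f33p0/2746, of 2746 bases with 33 reads. It had 95.9, 100.2 and 84.6 CPM in control and 145, 149 and 148 CPM in MRW, with a log2 fold change of 0.66 ± 0.08 (SE; edgeR adjusted p = 0.000574). These 2 and a member of 486 bases with 40 reads were the rises called in every alternative. The other 12 kept their direction in all alternatives but lost the call in at least 2.

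The higher member with most reads, 199, has 2367 bases and had 59.0, 79.8 and 63.2 CPM in control and 93.4, 84.2 and 90.5 CPM in MRW. Control replicate 2 came close to the lowest MRW library. Its log2 fold change was 0.41 ± 0.12 (SE; edgeR adjusted p = 0.0465, from 0.00253 to 0.155 over the alternatives). The member with 163 reads and 1867 bases had 114, 126 and 110 CPM in control and 147, 150 and 156 CPM in MRW (edgeR adjusted p = 0.0101). It lost the call without control replicate 1 and without MRW replicate 3, and its adjusted p ranged from 3.9e-05 to 0.0594 over the alternatives. The member with 101 reads and 2644 bases had 13.2, 17.8 and 12.5 CPM in control and 20.8, 26.3 and 20.5 CPM in MRW (edgeR adjusted p = 0.0292). It was called in 14 of the 19 alternatives.

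**Figure D4:**
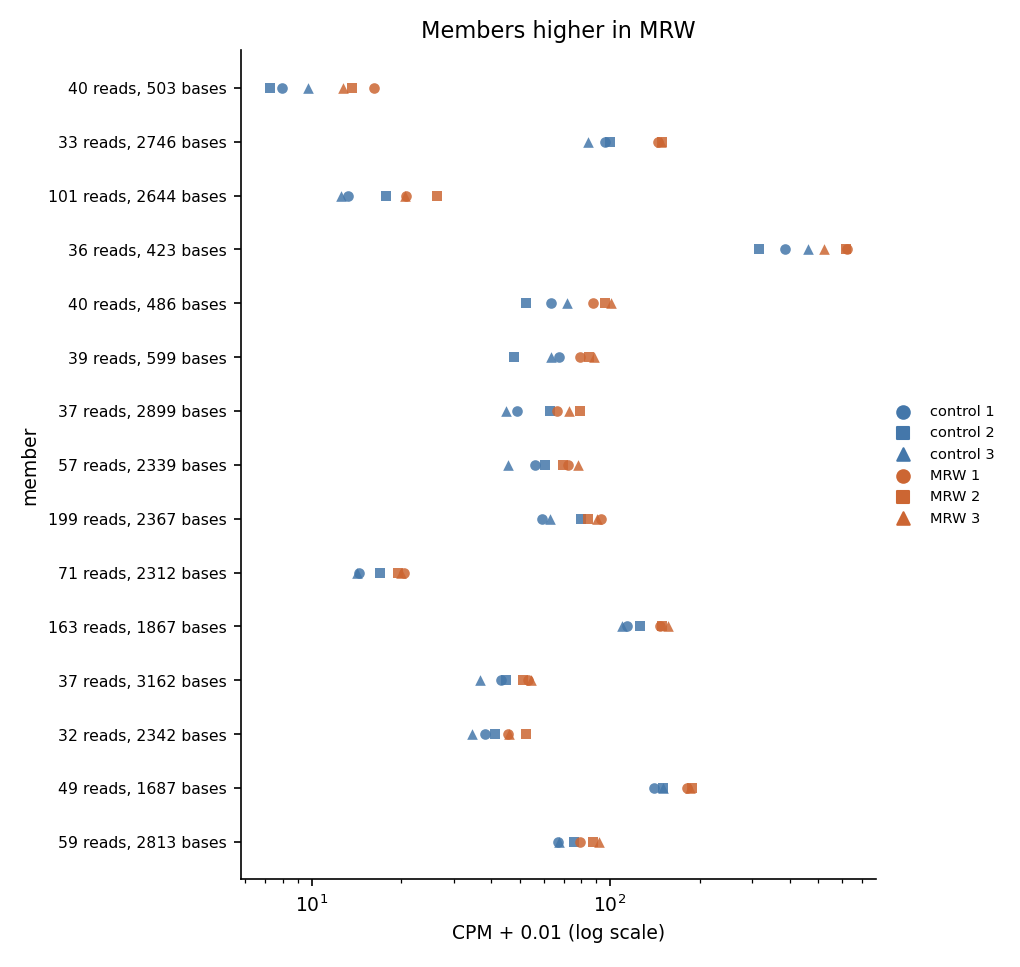
CPM plus 0.01 (log axis) of the 15 members called higher in MRW, with 1 symbol for each library, blue for control and orange for MRW. Members are named by full-length reads and length and ordered by fold change, from 1.71-fold downwards. The square of control replicate 2 is the rightmost control symbol in all 9 transcripts over 2000 bases and the leftmost in all 4 of up to 1000 bases.

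Direction went with length in the members as in the whole table in the edgeR fit of all 6 libraries. The 3 calls under 500 bases were an exception. Over 2000 bases, falls outnumbered rises among members when any single library other than control replicate 2 was left out. Of 70 tested members over 2000 bases, 9 were higher (12.9%) and 4 lower (5.71%), against 9.19% and 6.22% of all rows of that length. The median log2 fold change was 0.19 in both. Of the 56 of 500 to 1000 bases, 2 were higher (3.57%) and 12 lower (21.4%), against 3.02% and 18.4% of all such rows, with a median of -0.11 in both. The 19 under 500 bases held 2 higher (10.5%) and 1 lower (5.26%), against 4.03% and 20.1% of all such rows. The balance of calls was thus the reverse there, with medians of -0.16 and -0.10. The 68 over 1000 and up to 2000 bases held 2 higher (2.94%) and 8 lower (11.8%). All rows of those lengths had 4.21% and 11.9%, and the medians were 0.003 and -0.003. The Spearman correlation of length with log2 fold change was 0.428 over members and 0.412 over all tested rows, and transcripts are not independent replicates.

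Control replicate 2 moved with these rises. Each library's median log2 deviation was taken for members over 2000 bases, less that for members of 1000 bases or fewer. This balance came to -0.24, 0.20 and -0.42 for control replicates 1, 2 and 3. It was 0.18, 0.16 and 0.14 in MRW replicates 1, 2 and 3. Control replicate 2 thus lay near the MRW libraries and apart from control replicates 1 and 3. Control replicate 2 was the highest control library in all 9 higher members over 2000 bases and the lowest in all 4 higher members of up to 1000 bases. Without it, 32 members over 2000 bases were called higher (45.7%) and 4 lower (5.71%), against 19.0% and 6.07% of all rows of that length. Without any other single library 1 to 3 were higher (1.43% to 4.29%, against 3.17% to 5.84% of all such rows) and 3 to 4 lower. After a fitted trend with length was taken out of every library, 5 were higher (7.14%) and 7 lower (10.0%), against 3.94% and 9.37% of all such rows. The part of this library difference in the rises was not tested. Members of up to 1000 bases were more often lower than higher in every one of these fits. The calls ran from 15 lower against 10 higher with the trend removed to 31 against 4 without control replicate 2. In the fit with the trend removed, 15 of 75 were lower, against 18.4% of all such rows. There 13.3% were higher, against 8.88% of all such rows. In the fit without control replicate 2, 41.3% of these short members and 30.4% of all such rows were lower.

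**Figure D5:**
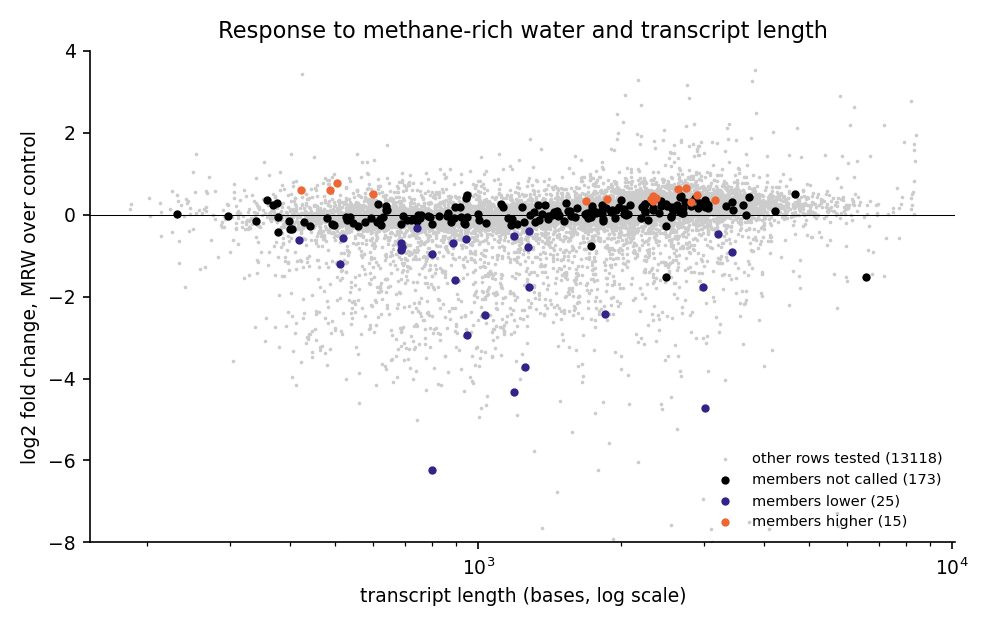
Log2 fold change of MRW over control against transcript length (log axis) for all tested rows, members in colour by call. Of the other rows, 56 lie outside the plotted range. The 15 higher members stay within 0.77 of 0, and the 11 strongest falls reach from -1.20 to -6.23.

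The 21 rows with 30 reads or more that were left out for their level had a median of 53 reads and 3613 FPKM. Of these 3 were called lower (14.3%), each by less than 2-fold, with a median log2 fold change of -0.11. Counts carried decimals in 19 of the 21. Adding them to the members gave 18.4% called.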

How the data were processed

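The authors deposited 1 table with estimated counts and FPKM for 14140 full-length transcripts in 6 libraries; the unit names come from the headers, and values with decimals show that the counts were estimated. The submitters' processing notes name Subread, without role or version, and the series' design text names a soybean genome, while rows are lily transcripts; the sources used here give no aligner or counting program. No per-sample column was left unused. Counts were rounded, filtered with filterByExpr (minimum 10, total 15; 13331 rows kept), scaled by TMM and tested with edgeR 4.0.16 in R 4.3.3 (treatment only, Benjamini-Hochberg over all 13331 rows). The common biological coefficient of variation was 0.154. The test was checked on simulated data with that coefficient of variation. It recovered 29.4% of 1.5-fold changes, 93.9% of 2-fold changes and 100% of 4-fold changes, so changes under 2-fold may be missed. SE is the log2 fold change over the root of F. Log2 CPM used a prior count of 2. Counts were called whole within 0.005 in all libraries.

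Nothing says whether replicates share culture or extraction, so p-values measure the spread between these libraries. Replicate pairs differed by 7.97 to 27 times the chi-square of sampling alone and were all kept as separate samples. Same-numbered libraries had correlations of -0.0682 to -0.0142 in their deviations and were not treated as pairs. Alternatives were DESeq2 1.42.0 (test and RLE factors), upper quartile factors, library totals, limma-voom (limma 3.58.1), limma on log2(FPKM + 1) and log2(FPKM + 0.1), other filters, a replicate block, a loess length trend (span 0.3), each library left out, and other bounds of the member rule. The members, classes and lists were chosen with earlier results of these data known. Transcripts named by identifier are the 2 largest falls and 2 largest rises among called members whose groups did not overlap, with 1 CPM or more on average; other members are given by read number and length, as the most or fewest reads, reads per FPKM or smallest and largest SD, and the further called ones were chosen after their values were seen.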

Additional observations from a re-analysis of the deposited data

How the results depend on the processing

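Of the members, 11 were at least 2-fold lower, and 10 to 12 were under all 19 alternatives. The 40 changed members became 68 with upper quartile factors (31.9%, against 25.3% of all rows) and 27 to 89 with each library left out (12.7% to 41.8%, against 11.9% to 25.0%); the 15 higher became 45 with upper quartile factors, 26 with library totals, 26 with DESeq2, and 23 and 24 with limma on log2(FPKM + 1) and log2(FPKM + 0.1) in rows of at least 1 FPKM, and 4 to 43 with each library left out; the 25 lower became 23 to 46. The upper ends of these ranges came without control replicate 2, where the members' share was well above that of all rows. There 20.2% of the members were higher against 9.61% of all rows, and 21.6% lower against 15.4%. Without any other single library the higher were 1.88% to 3.29% against 2.4% to 3.69%. With upper quartile factors they were 21.1% against 15.0%. With DESeq2 60 members were changed (28.2%), and 12.2% were higher against 6.86% of all rows. With the length trend removed 54 were changed (25.4% against 19.2%). The higher were 12.2% against 7.63% with library totals. They were 10.9% and 11.4%, against 6.83% and 6.64%, with limma on log2(FPKM + 1) and log2(FPKM + 0.1) in rows of at least 1 FPKM. Upper quartile factors and library totals moved the median log2 fold change of all rows to 0.14 and 0.10, from 0.02. In rows of at least 1 FPKM it was 0.085 and 0.093 with limma on log2(FPKM + 1) and log2(FPKM + 0.1). With DESeq2 it was 0.015. The cause of the moves in the calls was not tested. With the replicate block 35 members were changed (16.4%, against 13.8% of all rows). Of these 11 were higher (5.16% against 3.51%) and 24 lower (11.3% against 10.3%). Of 67 members with whole counts 7.46% were called, against 18.8% of all 213 tested; with 20 or 50 reads as the bound, or with 0 or 200 rows left out for their level, the share was 18.4% to 20.3%. The Spearman correlation of reads with level (0.096) was 0.086 and 0.071 as Pearson's r with pseudocounts 1 and 0.1, 0.086 in control, 0.247 with whole counts, 0.142 with no row left out and 0.113 in rows past the filter. That of reads with response (0.045) was 0.075 with the length trend removed, -0.109 with whole counts and 0.011 to 0.077 with each library left out. The length alternatives for members, per-full-length levels and 2-fold counts were chosen after seeing the data. The 5 untested members had at most 12.9 counts over all libraries, and 2 of the falls rest on under 100 counts in every library.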
